A study of Macaca mulatta with 4 samples.

Results

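The TRPC7/HCRTR2-type granule nuclei are nuclei of the fetal rhesus cerebellum in which 5 genes were detected together more than the genes of any other granule cell list. The 5 genes, called list D here, are TRPC7, HCRTR2, GRM3, NECAB1 and GRM5. A nucleus was a member if it had at least 500 genes, had no unique molecular identifier (UMI) of SLC1A3, GAD2, MKI67 or TOP2A, and had UMIs of at least 2 list D genes and of more list D genes than genes of each of 5 other lists (A, B, C, E and F, with 5 genes each). By this rule 1842 of 32587 nuclei were members, 554 in the control female, 425 in the control male, 307 in the LPS male and 556 in the LPS female. Values are given in this order of libraries throughout. The 34 genes of the rule chose the nuclei from these same data, so the levels of these genes are a description and carry no test.

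The study compared single-nuclei RNA of the cerebellum in late-gestation rhesus macaque fetuses with and without chorioamnionitis. The dams of 2 fetuses, 1 female and 1 male, had no intervention per the labels and the methods of the study. By these no vehicle was injected, though the results of the study name a placebo. These control fetuses were delivered at 130 days of gestation. The LPS group had 2 fetuses exposed to 1 mg of intra-amniotic LPS (endotoxin of Escherichia coli, a model of chorioamnionitis) and delivered 5 days later, a male at 133 days and a female at 131 days. Each fetus gave 1 library on the 10x platform from frozen tissue of the left hemisphere with its side of the vermis, so the fetus was the replicate.

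Granule cells are the small glutamatergic neurons of the cerebellar cortex. Their precursors divide in the external granule layer under sonic hedgehog, leave the cell cycle, migrate inward along Bergmann glia and receive mossy fibers in the internal granule layer. Of the list D genes, GRM5 encodes mGluR5, a metabotropic glutamate receptor that acts through Gq and phospholipase C, and GRM3 encodes mGluR3, which acts through Gi. TRPC7 is a cation channel opened by diacylglycerol, a product of phospholipase C. HCRTR2 is a receptor for the hypothalamic orexin peptides. NECAB1 is a neuronal protein that binds calcium through EF-hands.

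Gestation at delivery followed exposure, with the controls at 130 days and the LPS fetuses at 133 and 131 days. Age thus cannot be told apart from LPS. The libraries also differed in ways that did not follow exposure. They held 34282015 to 61665690 UMIs, and members had a median of 4864.5, 1995, 2482 and 4434 UMIs. Mitochondrial genes took a mean of 0.266, 0.0188, 0.0224 and 0.185% of a member's UMIs. By UMIs per member both females were deeper than both males, though not by library UMIs, and sex cannot be told apart from how these libraries were made. The LPS male also held 934 list E nuclei (chosen by RAB37, PTK2B, GABRB2, MEGF11 and SLIT3), where the other 3 libraries held 94, 95 and 41. Pairs of libraries shared 16 to 22 barcodes among their nuclei, of which at most 2 were members in both.

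GRM5 had a UMI in 98.4, 90.1, 93.8 and 98.2% of members and took 1744, 1021, 948 and 1762 counts per 1000000 (CPM) of the UMIs of all members summed. The females were above the males in both groups. TRPC7 had 489, 379, 386 and 427 CPM and NECAB1 had 499, 488, 330.2 and 507 CPM. GRM3 was spread most widely, with 296, 206, 113 and 368 CPM. HCRTR2 was found in 47.1, 26.8, 36.2 and 60.6% of members, at 198, 164, 192 and 252 CPM. Levels of TRPC7 and GRM5 overlapped between LPS and control fetuses, as did those of the other 3 genes.

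**Figure D1:**
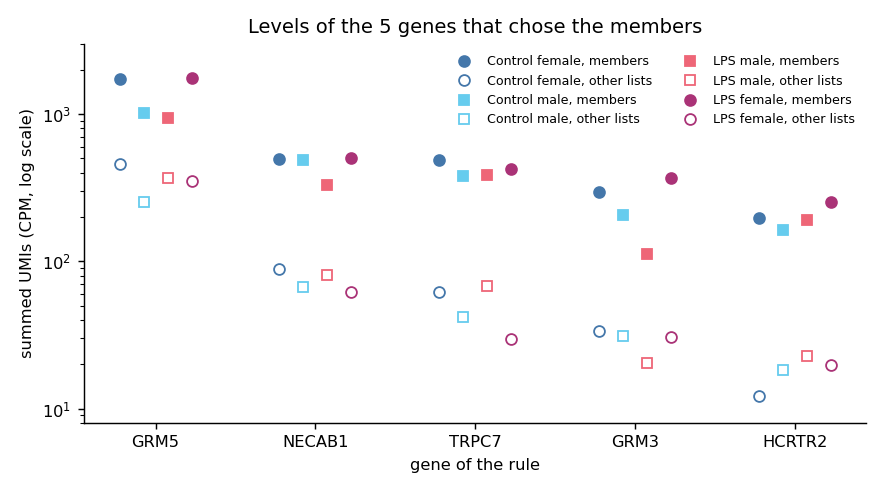
Summed UMIs of the 5 list D genes (CPM, log scale), in members (filled) and in the nuclei of lists A, B, C, E and F together (open), for each of the 4 libraries. Members lie above the other nuclei because these genes chose them, and for GRM5 the females lie above the males.

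Free RNA also carried these genes. The list D genes together had 3226, 2258, 1969 and 3317 CPM in members, 1054, 737, 780.3 and 856 CPM in empty barcodes (at most 100 UMIs) and 102, 141, 282 and 63.6 CPM in list A nuclei. List A nuclei, in which precursor markers were highest on average, were below the level of free RNA and members above it in each library. The rule chose both kinds of nuclei by these genes, so this order was in part set in advance and carries no test.

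The genes came in varied combinations. TRPC7, GRM3, NECAB1 and GRM5 without HCRTR2 was the most common combination, in 293 members (15.9%), and 261 members (14.2%) had all 5 genes. TRPC7 or HCRTR2, the genes that name the type, was found in 93.3, 68.7, 74.6 and 93.2% of members, so the name did not cover every member. In the females 53.2 and 47.1% of members (control and LPS) had 4 list D genes, whereas in the males 44.9 and 45.3% had 2. The number went with depth. In the control female the members with 2 list D genes had a median of 1989 UMIs and those with 5 had 5537.

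Many nuclei lay near the limit of the rule. Of the members, 362, 325, 255 and 333 were ahead of the next list by 1 gene and 192, 100, 52 and 223 by more. Just outside, 1571 nuclei with at least 2 list D genes were tied with another list, 866 of them with list C (CHRM3, CLSTN2, CDH6, NTF3 and CHST9) and 727 with list F (NELL1, C8orf34, CHRM2, CNTNAP5 and ASIC2). Members also carried the genes of these lists. List C genes together had 2109.7, 1755, 1052 and 1907 CPM in members, and list F genes had 1481, 1431, 1242 and 1666 CPM. In turn, list D genes had 2207, 846, 817 and 2070.3 CPM in list F nuclei and 1258, 734, 774 and 1260.2 CPM in list C nuclei. List E nuclei had 1314, 530, 591 and 1042 CPM of list D genes, and 227 nuclei were tied with list E. The same genes chose the nuclei of every list, so these overlaps are a description and do not show which list is nearest. The limits of the members were set by a count of genes. Whether genes outside the rule show a gap around members was not tested.

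Each list D gene was also held out in turn. The nuclei then chosen by the other 4 genes had a higher level of the gene left out than the nuclei of the other lists in all 20 combinations of gene and library. HCRTR2 had ratios of 4.98, 2.32, 2.15 and 4.02, and GRM3 had ratios of 3.25, 1.72, 1.19 and 4.26. TRPC7 had 3.39, 2.43, 1.88 and 4.04. For these 3 genes both males were below both females, and the lowest of all ratios was that of GRM3 in the LPS male. The list D genes were listed together with results of these data known, so this is a description and gives no support. The other lists also include list A and B nuclei, in which list D genes together averaged 147 and 188 CPM.

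Genes outside the rule were compared between members and the nuclei of the other lists, also as a description. Of 5186 genes with at least 20 CPM in members of every library, 892 (17.2%) were higher in members in every library, and 14 of these were at least 2-fold higher in each. Of 5663 genes with at least 20 CPM in the other lists, 2033 (35.9%) were lower in members in every library, 51 of them by 2-fold or more. The other lists include precursors, so these counts set later against earlier granule nuclei in part. Genes were ranked by the smallest of the 4 libraries' ratios.

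CACNA2D3, an auxiliary subunit of voltage-gated calcium channels, led the genes with a symbol. It had 304, 529, 612 and 413 CPM in members against 123, 212, 254 and 94.9 CPM in the other lists. List A nuclei by themselves had 377, 343, 636 and 150.4 CPM, above members in the control female and the LPS male. MYO5B, a motor of recycling endosomes, had 174, 239, 203 and 199 CPM against 41.4, 91.0, 85.1 and 37.8. Its levels in members were close to each other across the 4 libraries. DOCK10, an activator of small GTPases, had 678, 751, 544 and 733 CPM in members against 184, 313, 250.4 and 181.

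FRAS1, of basement membranes, had 167, 262, 134 and 119 CPM in members against 44.6, 102, 57.5 and 23.4. FBN1 (fibrillin) had 106, 76.9, 136 and 84.1 CPM against 29.8, 35.1, 60.4 and 18.6. P3H2, which hydroxylates collagen, had 30.1, 27.0, 37.6 and 27.2 CPM against 13.9, 7.83, 16.9 and 13.3. Its level in empty barcodes was 26.0, 22.8, 26.0 and 33.7 CPM, above members in the LPS female. FRAS1 averaged 195 CPM in list F nuclei and 170.2 CPM in members.

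PRKCA, protein kinase C alpha, which diacylglycerol activates, had 177, 232, 246 and 133 CPM in members against 76.9, 119, 126 and 50.5. RIMKLA makes N-acetylaspartylglutamate, a peptide that acts on mGluR3, and had 55.4, 41.6, 48.6 and 46.5 CPM against 24.6, 18.7, 22.7 and 17.2. NOX4, an NADPH oxidase, had 153, 93.6, 103 and 130.2 CPM against 57.7, 43.4, 47.1 and 58.2. PLA2G7, the hydrolase of platelet-activating factor, was low, at 23.1 to 28.1 CPM against 7.38 to 11.4. That members were higher in each library is how these genes were picked.

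The remaining leading genes with a symbol were SAMD5, SPATA13 (an activator of Rac and Cdc42), TENT5A, PTPRT (a receptor phosphatase), RIMBP2 (of the presynaptic active zone) and PDLIM3. SAMD5 had 286, 417, 185 and 354 CPM in members against 93.2, 182, 69.9 and 133, and PTPRT had 163, 163, 95.9 and 186 CPM against 49.9, 72.8, 47.9 and 42.0. The other 4 of the 20 leading genes have no symbol in the sources used here. The mean level was highest in members for 14 of the 20 and in list F nuclei for 6. Against empty barcodes, 16 of the 20 were higher in members in every library, and SPATA13, P3H2, RIMBP2 and PDLIM3 were not. All 20 were above list C nuclei in every library, 11 above list E nuclei and 10 above list F nuclei.

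**Figure D2:**
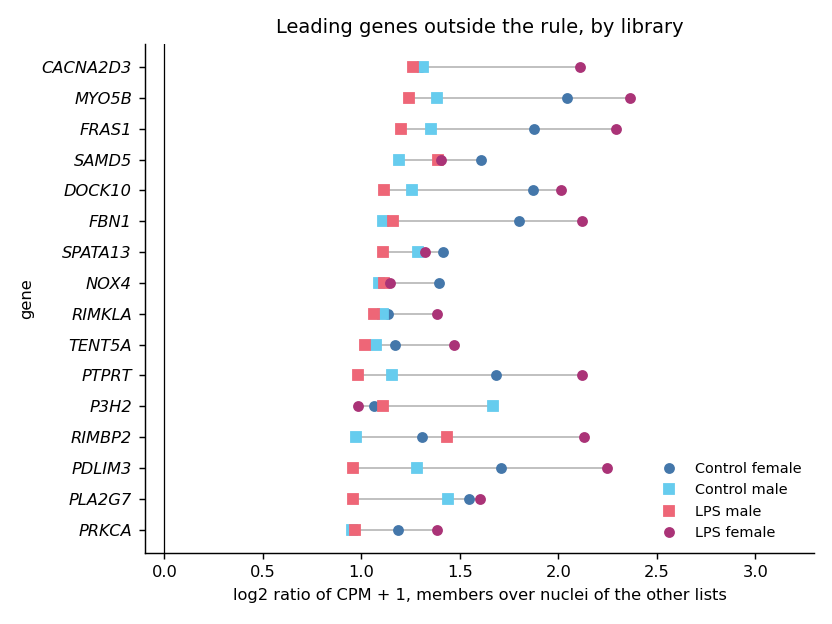
The log2 ratio of CPM + 1 in members to that in nuclei of lists A, B, C, E and F, for the 16 leading genes with a symbol (rows) and the 4 libraries (points), with a line over their range. MYO5B ranges from 1.24 to 2.36 and CACNA2D3 from 1.26 to 2.11, each with the LPS female highest and the LPS male lowest.

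The genes lowest in members were highest in the earlier nuclei of lists A and B, and were also low in lists C, E and F. TSPAN18, a tetraspanin, had 18.3, 37.4, 29.1 and 16.4 CPM in members against 239, 441, 173 and 263 in the other lists. GLI2, a transcription factor of sonic hedgehog signalling, had 5.14, 14.6, 10.9 and 1.60 CPM against 48.1, 138, 54.4 and 57.2. TOX3, a nuclear factor, had 14.7, 37.4, 19.4 and 13.2 CPM against 239, 221, 87.2 and 346. The others of the 10 lowest were CCDC88C, the serotonin receptor gene HTR1E, SPNS2 (a transporter of sphingosine-1-phosphate), ENPP1, B3GAT1, KIRREL1 and a gene without a symbol. Over the 10 genes, the highest mean level was in list A nuclei for 8 and in list B nuclei for 2. TSPAN18 averaged 30.1, 37.7 and 41.2 CPM in lists C, E and F against 25.3 CPM in members. ENPP1 averaged 27.2, 9.35 and 10.8 CPM there against 11.3 CPM in members. Low levels of these genes were thus not particular to members.

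The label of later granule cells was checked against marker lists. The 18 granule identity markers could not serve for this. They had 12829, 13184, 13036 and 11938 CPM in members and 10633, 10605, 11745 and 9310.2 CPM in empty barcodes, so nearly every nucleus thinned to 1000 UMIs had 2 or more, in members and in the other lists alike. RELN, which granule cells secrete, had 3284, 2605, 2149 and 3165 CPM in members. The 11 precursor markers together had 589, 478, 575 and 539.5 CPM in members, against a mean of 3397 CPM in list A nuclei and 1178 CPM in list B nuclei. ATOH1 and GLI1, which define the precursors, had at most 1.04 CPM in members. The precursor list was about as low in lists C, E and F, with means of 605, 567 and 546 CPM.

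The 17 genes of the migration list together had 7641, 6192, 6947 and 7758 CPM in members, and means of 9408 CPM in list A and 9886 CPM in list B. Members were below both in all 4 libraries and above each of lists C, E and F in 3. Empty barcodes had a mean of 7134 CPM, the same level as members, so the sum by itself sets members apart from lists A and B at most. DCC, a netrin receptor, had 110.5, 179, 248 and 131 CPM in members against 743, 519, 368 and 998 in the other lists. UNC5C, another netrin receptor, had 1357, 1015, 1435 and 1304 CPM against 4135, 2024, 1710.2 and 4246. ASTN2, which acts in migration along glia, went the other way, with 3654, 2864, 2632 and 3785 CPM against 1086, 1145, 1854 and 792. Of the 14 migration genes with at least 20 CPM in members, 3 were higher in every library (ASTN1, ASTN2 and UNC5B), near the 17.2% of all genes. Of the 14 with at least 20 CPM in the other lists, 12 were lower, where 35.9% of all genes were.

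By their sum, though not gene by gene, maturity markers lay between lists C and F in members. The 21 mature markers together had 5215, 3309, 5356 and 5762 CPM in members. In each library this sum was above list A, B and C nuclei and below list F and E nuclei. Its means were 4011 CPM in list C, 5941 CPM in list F and 8146 CPM in list E. Empty barcodes had 3394, 2259, 5068 and 2919 CPM, in the LPS male close to members and above list C nuclei. Of the 12 mature genes with at least 20 CPM in members 1 was higher than in the other lists in every library (17.2% of all genes), and of the 11 with that level in the other lists 3 were lower (35.9% of all genes). The synaptic vesicle gene SYT1 made up much of the sum, with 2953, 1278, 2048 and 3257 CPM, and the kinase gene CAMK4 had 394, 367, 734 and 469 CPM. GABRA6, the GABA-A receptor subunit of mature granule cells, had 9.91 and 12.02 CPM in members of the females, 7.28 CPM in the control male and 24.3 CPM in the LPS male, and was higher in list E nuclei on average. KCNK9, a leak channel of mature granule cells, had 0 UMIs in members of all 4 libraries, in the other lists and in empty barcodes, so its 0 says nothing about members.

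**Figure D3:**
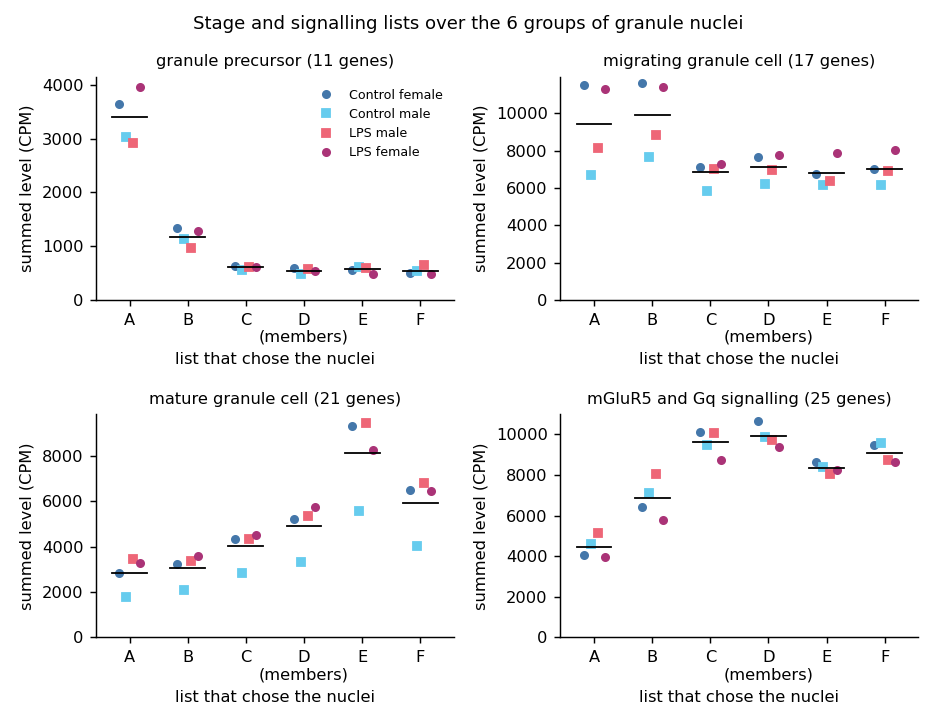
Summed level (CPM) of 4 gene lists in nuclei of lists A to F, with a point for each library and a bar at the mean of the 4. In members (D) the precursor list averages 546 CPM against 3397 CPM in list A, and the mature list averages 4910.5 CPM, between lists C and F.

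The partners of mGluR5 were measured as a list of 25 genes. Of the 18 with at least 20 CPM in members, 9 were higher than in the other lists in every library, where 17.2% of all genes were. Phospholipase C beta 1 (PLCB1) had 2983, 2164, 2355 and 2782 CPM in members against 1593, 1248, 1900.2 and 1249.8. Protein kinase C beta (PRKCB) had 2605, 2623, 2129 and 2465 CPM against 1850.4, 1785, 1494 and 1604. The diacylglycerol kinases DGKB, DGKG and DGKI were also among the 9, DGKB with 689, 282, 429 and 427 CPM against 238, 119, 313 and 145. PLCB4 and the IP3 receptor gene ITPR1 were lower in each library, PLCB4 with 410.3, 400.2, 458 and 364 CPM against 766, 608, 603 and 671. The list summed to 10647, 9890.0, 9721 and 9363 CPM in members, above lists A, B, E and F in all 4 libraries and above list C in 3.

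Of the other receptors of this family, GRM4 (mGluR4), of mature granule cells, had 152, 270.3, 323 and 145 CPM in members and a mean of 676 CPM in list E. GRM2 and GRM6 had at most 2.43 CPM in members. Among the TRPC channels, TRPC5 had 103, 123, 93.5 and 103 CPM in members against 42.4, 49.2, 70.3 and 31.9, while TRPC1 had 258, 238, 202 and 283 CPM against 287, 243, 199 and 317. HCRT, the precursor of the orexins, and HCRTR1, the other orexin receptor, were near 0, with at most 2.08 and 0.734 CPM in members.

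KCNIP4, an EF-hand protein that binds Kv4 potassium channels, had 10215, 4111, 6897 and 7302 CPM in members against 3115, 1684, 6464 and 1694. It was also high in list E and F nuclei, with means of 7483 and 8351 CPM. KCND2, which encodes a Kv4 channel, had 6956, 2939.8, 3059 and 7236 CPM in members against 4725, 1870.1, 2486 and 3734. Of 18 potassium channel genes, 6 were higher in every library (KCND2, KCNAB1, KCNH7, KCNK2, KCNN3 and KCNT2), against 17.2% of all genes, while KCNJ6 and KCNQ3 were among those lower in every library. The list summed to more in list C nuclei than in members in all 4 libraries, with means of 12080.1 and 10991 CPM.

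Of 26 adhesion and synapse assembly genes, 15 were higher in members in every library, where 17.2% of all genes were. The list averaged 36694 CPM in members and 36473 CPM in list F nuclei, with members above list F in 2 of 4 libraries. NTM (neurotrimin) had 5240.3, 6471, 5768 and 4626 CPM in members against 2155, 3286, 3699 and 1649. KIRREL3, a synaptic adhesion protein, had 4699, 5389, 6409 and 4641 CPM against 1386, 2212, 4501 and 877. TENM2, a teneurin that binds latrophilins across the synapse, had 4120.0, 2867, 1749 and 3889.6 CPM against 1219, 1264, 1014 and 879. FLRT2, another ligand of latrophilins, went the other way, with 33.4, 72.8, 68.0 and 59.7 CPM against 219, 217, 104 and 253.

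Among NMDA, AMPA and kainate receptor genes, 6 of 10 were higher in every library, against 17.2% of all genes. List C nuclei were above members for the sum of this list in all 4 libraries, with a mean of 16958 against 15005 CPM. GRIK1, a kainate receptor subunit, had 459, 291, 152 and 542 CPM in members against 163, 179, 92.3 and 135. GRIN2B, an NMDA receptor subunit of young neurons, had 995, 747, 682 and 1047 CPM against 626, 474, 466 and 594, while GRIN2A, which rises with age in many neurons, had 46.6, 16.6, 93.5 and 30.8 CPM in members. A further list took the genes named for the main granule cluster in the original work. It was chosen on these same samples and is no independent evidence. Of its 11 genes 9 were higher in members in every library. The sum of this list was higher in list F nuclei than in members in all 4 libraries and higher in list E nuclei in 3, with means of 31573, 29322 and, in members, 29154 CPM.

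Markers of other cells were low but not absent. The rule had removed nuclei with a UMI of SLC1A3 or GAD2, so low shares for glia and interneurons were in part set in advance. Of members thinned to 1000 UMIs, 2 or more markers were found in 1.46 to 3.92% for Purkinje cells, 2.38 to 7.28% for interneurons, 1.94 to 3.92% for oligodendrocytes and 2.56 to 8.63% for astrocytes and Bergmann glia. In the other lists the ranges were, in this order of cells, 4.81 to 7.19, 1.74 to 6.95, 2.65 to 6.95 and 2.48 to 6.07%. Within each library members were above the other lists for interneurons and below them for Purkinje cells and oligodendrocytes. For astrocytes and Bergmann glia members were above them in each library except the LPS female. For microglia the highest share in members was 0.392%. The 10 oligodendrocyte markers had 569.5, 541, 1673 and 739.8 CPM in members, highest in the LPS male. There MBP (myelin basic protein) had 883 UMIs in 52 of 307 members, and the 5 members with the most held 76.1% of them. PDGFRA, of oligodendrocyte precursors, was spread over more nuclei, with UMIs in 364 of 554, 153 of 425, 93 of 307 and 418 of 556 members. OLIG1 had 0 UMIs in members, in the other lists and in empty barcodes alike. The choroid plexus gene TTR had 8.81, 1.04, 0 and 257 CPM in members. The choroid or ependymal list had 218, 127, 100.3 and 2942 CPM in empty barcodes, highest in the same library.

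The first comparison asked whether the share of these nuclei differs after LPS. Members were 5.99% of nuclei in the control female (95% exact binomial interval 5.51 to 6.49%), 4.93% in the control male (4.48 to 5.41%), 3.93% in the LPS male (3.51 to 4.39%) and 8.05% in the LPS female (7.42 to 8.72%). The intervals cover counting error only. The controls lay between the LPS fetuses, so the groups overlapped. The test took the fetus as the replicate and shared its spread over all classes of nuclei. By edgeR's quasi-likelihood test the log2 difference was 0.13 (SE 0.94, adjusted p 0.978). Without the LPS female it was -0.47 and without the LPS male 0.56. An exact permutation test of 2 against 2 fetuses cannot reach 0.05.

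The share moved with depth and with the excluding genes. UMIs of SLC1A3, a glutamate transporter of glia, were found in 50.8, 27.4, 31.2 and 44.1% of nuclei, and the 4 excluding genes removed 61.6, 37.1, 40.5 and 56.3% of nuclei. In empty barcodes these 4 genes took 787, 611, 523 and 856 CPM. The lists alone, without the excluding genes, would choose 19.1, 7.91, 7.62 and 19.1% of nuclei, of which 68.6, 37.7, 48.4 and 57.9% were removed. By the lists alone the females were thus nearly equal. With each nucleus thinned to 1000 UMIs before the rule, members were 8.98, 4.46, 3.92 and 9.27% of the 8867, 7841, 6017 and 6740 nuclei that had so many, and the log2 difference was -0.027 (SE 0.63, adjusted p 0.970 by edgeR). With UMIs per nucleus matched, both females were above both males. After thinning the 4 excluding genes removed 29.2, 26.0, 23.7 and 28.9% of nuclei, so thinning changed depth and this step together. Free RNA was not matched, and the part of each was not tested.

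**Figure D4:**
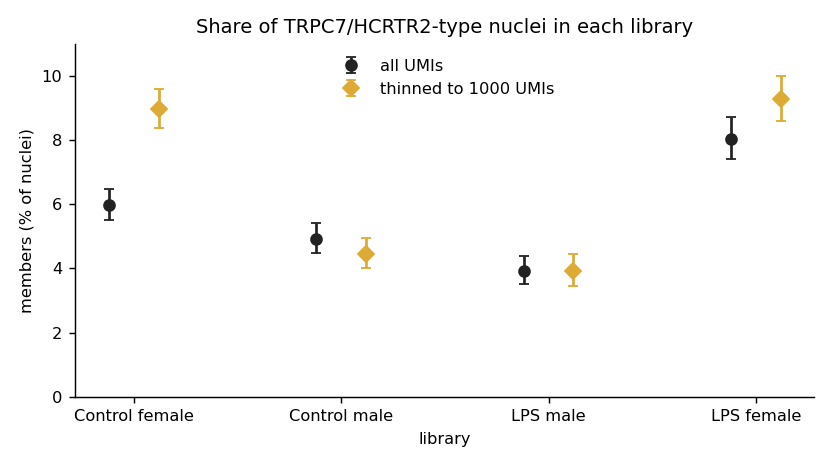
Members as a percent of all nuclei with at least 500 genes in each library, with 95% exact binomial intervals, from all UMIs (circles) and after thinning to 1000 UMIs, over the nuclei with at least that many (diamonds). With all UMIs the LPS female is highest at 8.05% and the LPS male lowest at 3.93%, and after thinning the females are at 8.98 and 9.27% and the males at 4.46 and 3.92%.

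The second comparison asked which genes differ in members after LPS. Of 10306 genes tested, 0 passed edgeR's quasi-likelihood test with the limits of 0.1 for the adjusted p and 0.25 for the size of the log2 change (0% in each direction), and DESeq2 called 0. At an unadjusted p under 0.05 edgeR found 48 genes, 33 higher (0.32%) and 15 lower (0.146%), and DESeq2 found 23. With sex as a block edgeR found 420 of the same 10306 genes at that limit, 286 higher and 134 lower. The test as planned had no term for sex, so differences between the female and male libraries stayed in its spread. Its 0 calls thus do not show that LPS made no difference. The LPS and control libraries did not overlap for 971 genes that were higher (9.42%) and 889 that were lower (8.63%). The sign of the difference was the same in females and males for 5084 of the 10306 genes. Fits without a fetus leave a single fetus in its group, with the spread taken from the other group alone. Their counts are thus not read as findings and are listed only with the dependence on processing.

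The genes with the lowest unadjusted p are given as values that did not pass. COL25A1, a transmembrane collagen of neurons, had 107, 44.3, 229 and 294 CPM (scaled by TMM). Its log2 difference was 1.77 (SE 0.47, unadjusted p 0.00962, adjusted p 1.00 by edgeR), and both LPS fetuses were above both controls. With sex as a block the adjusted p was 0.0191 by edgeR (log2 difference 1.85, SE 0.25), so the call depends on the design. PLCL1, a phospholipase C relative without catalytic activity, had 46.2, 52.0, 115 and 101 CPM, with the LPS fetuses again above the controls.

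SLC25A13, the mitochondrial aspartate-glutamate carrier, had 32.4, 38.5, 122 and 67.2 CPM, with a log2 difference of 1.41 that was 0.91 without the LPS male. DYNC1I1, an intermediate chain of the dynein motor, had 46.2, 35.6, 90.3 and 85.9 CPM. TRMT9B, a tRNA methyltransferase-like gene, had 8.91, 11.5, 62.9 and 21.7 CPM, and its log2 difference of 2.03 (SE 0.63) was 1.08 without the LPS male and 2.62 without the LPS female. PTGDS (prostaglandin D synthase) had a log2 difference of 1.19 (SE 0.41). In each of the 6 genes the LPS libraries lay above the controls, as they did for 9.42% of all genes. The adjusted p of each was 1.00 by edgeR.

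Of the genes on the lower side, CALD1 (caldesmon) had 143, 94.3, 64.0 and 56.8 CPM and a log2 difference of -0.98 (SE 0.35). GFRA2, a co-receptor for neurturin, had 122, 155, 65.1 and 87.6 CPM. NMNAT3, which makes NAD, had 45.4, 42.3, 14.9 and 22.1 CPM. These and VRK2 (a kinase), PID1 (an adaptor protein) and TSHZ2 (a zinc finger factor) had log2 differences from -1.22 to -0.85, each with an adjusted p of 1.00 by edgeR. For CALD1 the difference was -0.64 without the control female, -1.51 after thinning to 1000 UMIs and -1.57 in members with 3 or more list D genes. For PID1 the difference of -1.11 became -0.38 after thinning to 1000 UMIs and -0.57 without the members that had 2 or more oligodendrocyte markers.

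**Figure D5:**
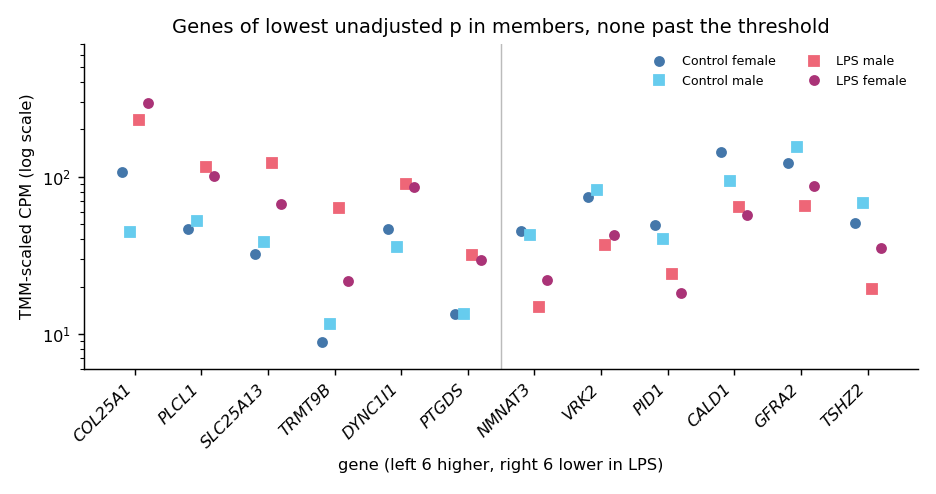
TMM-scaled CPM (log scale) in members of each library for the 12 genes of lowest unadjusted p with a mean of at least 20 CPM, 6 higher (left) and 6 lower (right) in LPS. The LPS points lie outside the control points for each gene, and none passed the adjusted test.

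By gene list, 0 genes of any list passed in members in the test as planned. With no filter on low counts TTR of the choroid list, MOBP of oligodendrocytes and HBG2 of red blood cells passed. MOBP rested on 33, 0, 97 and 55 UMIs in 4, 0, 12 and 3 members. The choroid and red blood cell lists were highest in the LPS female, at 319 and 58.9 CPM in members and 2942 and 578 CPM in empty barcodes. The part of free RNA in these calls was not tested. Without the LPS male the log2 difference of TTR was 5.47. With sex as a block TTR, of the choroid list, and KCNQ5, of the potassium channel list, passed. KCNQ5, a Kv7 channel subunit, had 93.6, 24.1, 77.7 and 248 CPM, with the groups overlapping, and its log2 difference was 1.45 (SE 0.77) without the block and 1.51 (SE 0.23, adjusted p 0.0568 by edgeR) with it. Over all 10306 genes the median log2 difference was 0.0043. In the mature list, 17 of 21 genes were tested, the median was 0.40, and the LPS fetuses were above the controls for 7 genes and below for 0, where 9.42% of all genes were higher and 8.63% lower without overlap. CAMK4 had 436, 339.7, 691 and 508 CPM and SNAP25, of synaptic vesicle fusion, had 150.3, 82.8, 184 and 191 CPM. VSNL1, a neuronal calcium sensor, had 60.4, 33.7, 86.9 and 76.8 CPM. In these 3 genes the lowest LPS value was above the highest control. Set against the other lists, the median difference of differences of the mature list was -0.26 over 18 genes (-0.027 over all genes). Its median change was thus not larger in members than in the pooled nuclei of the other lists. In the LPS male that pool held 934 list E nuclei, the nuclei with the highest mean of mature markers. The make-up of the pool was not matched between libraries.

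Other markers are given beside these. Of list E, whose genes are part of the rule and carry no test, PTK2B had 15.8, 33.7, 104 and 39.5 CPM and SLIT3 had 6.08, 3.85, 33.1 and 7.81 CPM in members, both highest in the LPS male, which held most list E nuclei. The oligodendrocyte list had a median of 1.30 over 7 tested genes, with MBP at 222, 174, 1009 and 223 CPM, so that the LPS male alone was high. The part of either in the mature list was not tested. A list of granule cell genes linked to LPS in the original work was chosen on these same samples and is no independent evidence. Of its 8 genes CAMK4 and RUNX1T1 were higher without overlap, where 9.42% of all genes were, and the median log2 difference was 0.72.

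The list of mGluR5 and Gq signalling had a median of -0.041 over 18 tested genes, and DGKG (639, 522, 362 and 345 CPM) was the 1 gene without overlap, where 8.63% of all genes were lower without overlap. Medians were 0.051 over 8 precursor genes, 0.15 over 16 migration genes, 0.098 over 28 adhesion genes and 0.14 over 25 potassium channel genes.

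Innate immune genes were mostly too low to test in members. Of 29 genes 8 were tested, with a median of -0.057. The interferon receptor genes IFNAR1 (40.5, 41.4, 38.9 and 36.4 CPM) and IFNAR2 (13.8, 19.2, 5.71 and 9.11 CPM) were lower without overlap, by little for IFNAR1, where 8.63% of all genes were. STAT3, a transcription factor of cytokine signalling, had 66.1, 121, 83.4 and 61.2 CPM, and NFKB1 had 72.5, 62.6, 48.0 and 75.5 CPM, with the groups overlapping for both. Of 18 immediate early and stress genes 5 were tested, and HSPA8, a chaperone, had 98.1, 16.4, 58.3 and 139 CPM, higher in the females than in the males.

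The third comparison asked whether the difference after LPS in members is unlike that in the nuclei of the other lists. The term of class by exposure, with the library as a block, was tested for 13068 genes. The other lists were pooled, and the LPS male held 934 list E nuclei against 94, 95 and 41 in the other libraries. The make-up of the pool thus differed between libraries, and its part was not tested. By edgeR 0 passed (0% in each direction), with 145 at an unadjusted p under 0.05, 84 higher (0.643%) and 61 lower (0.467%), and DESeq2 called 0, with 31 at that limit. Counts from fits without a fetus, which leave a single fetus in a group, are again not read as findings.

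KCNMA1, the BK potassium channel, was the first gene on the higher side. It had 4.69, 43.4, 65.9 and 10.8 CPM in members and 18.4, 81.4, 54.0 and 8.84 CPM in the other lists. Members were below the other lists in both controls and above them in both LPS fetuses (log2 difference of differences 1.57, SE 0.37, adjusted p 1.00 by edgeR). The call and the size depend on the processing. With no filter on low counts the adjusted p was 0.0711 by edgeR, while after thinning to 1000 UMIs the value was 0.077. Without the control male the value was 2.26. COL25A1 had 113, 45.4, 231 and 306 CPM in members and 179.5, 96.6, 247 and 287 CPM in the other lists (0.85, SE 0.23, adjusted p 1.00 by edgeR). Both LPS fetuses were above both controls for COL25A1 in both kinds of nuclei.

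SLC9A9, an endosomal exchanger of sodium and protons, had 46.5, 66.1, 112 and 88.3 CPM in members and 49.4, 59.8, 69.4 and 43.4 CPM in the other lists. CHAMP1, the kinase gene YES1 and FLRT3, a ligand of latrophilins, were the other genes on the higher side, and YES1 went from 0.96 to 0.54 after thinning. MSR1, a scavenger receptor of macrophages, was the first on the lower side, with 72.5, 51.3, 38.2 and 4.06 CPM in members and 29.8, 20.1, 56.1 and 2.48 CPM in the other lists (-1.55, SE 0.38, adjusted p 1.00 by edgeR). Without the LPS male the value was -0.62. The LPS female was low in both kinds of nuclei. The 9 microglia markers summed to 23.9, 34.3, 38.8 and 30.0 CPM in members and 117, 79.2, 48.3 and 126 CPM in empty barcodes. In members P2RY12 had 9.17, 17.7, 12.1 and 10.4 CPM, while CSF1R and TREM2 had at most 2.43 CPM. Their part in the MSR1 values was not tested. TPM1, EEF2K, FAT1, CRYL1 and WDR36 were the remaining genes on the lower side, from -0.92 to -0.66. After thinning TPM1 was at -1.37 and WDR36 at -1.21, and CRYL1 was at -0.56 without the LPS male.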

How the data were processed

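Single nuclei of the left cerebellum of 4 rhesus fetuses (2 control, 2 LPS) were measured with 1 library each. The authors deposited UMI counts per gene and barcode, unfiltered, which per the labels and file headers were made with Cell Ranger 4 against Mmul_8.0.1. Introns were counted, no free RNA was subtracted, and the matrices hold 30807 genes, 897 of them named here from the reference table.

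Barcodes with at least 500 genes were kept as nuclei. The members and gene lists were chosen with earlier results of these data known. Counts of members were summed per fetus and tested with edgeR 4.0.16 (quasi-likelihood, TMM, Benjamini-Hochberg adjustment; R 4.3.3), with DESeq2 1.42.0 as an alternative. The limits for a gene were 0.1 for the adjusted p and 0.25 for the size of the log2 change, and for a share 0.05 for the adjusted p. With 2 fetuses in each group the p-values for genes rest on the spread between these fetuses, estimated in part over all genes. For shares, all classes of nuclei shared an estimate of spread, list E among them, so the SE is not that of members alone. Each SE given with edgeR was derived from the log2 change and the F statistic. Levels of members and other lists are CPM of summed counts, with a pseudocount of 1 in ratios. They are not divided by gene length. Empty barcodes had at most 100 UMIs. For marker shares, and as an alternative for the tests, nuclei were thinned to 1000 UMIs, and shallower nuclei were left out.

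Doublets were called with Scrublet in scanpy 1.11.5. Its automatic limit failed in both male libraries, so doublets were kept and their removal was an alternative. Other alternatives were another normalization, no filter on low counts, sex as a block, stricter rules for nuclei and members, and each fetus left out.

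The genes named were the 6 of lowest unadjusted p in each direction with a mean of at least 20 CPM, the 20 leading and 10 lowest genes, and those of highest level in each list. Other genes of the lists were named after their values were seen. The tests were checked on simulated data. Some genes of the lists are not reported here.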

Additional observations from a re-analysis of the deposited data

Results flagged for a closer look

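The share of these nuclei moved in opposite directions in the sexes. It was 2.07 percentage points higher in the LPS female than in the control female (5.99 to 8.05%) and lower in the LPS male than in the control male, by -0.996 percentage points (4.93 to 3.93%). Each sex has 1 fetus per group, so the difference between the sexes was not tested. After thinning to 1000 UMIs the differences were 0.296 points in females and -0.5415 points in males. By the lists alone, without the excluding genes, the females were at 19.1 and 19.1% and the males at 7.91 and 7.62% (control and LPS).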

How the results depend on the processing

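The share kept its direction and stayed short of the threshold under 12 alternatives. It changed sign with nuclei thinned to 1000 UMIs (-0.027 against 0.13 on the log2 scale), and leaving out each fetus in turn gave -0.47 to 0.56, below 0 without the LPS female. The cause was not tested. The count of genes that passed in members was 0. It became 5 of 17834 genes tested with no filter on low counts, and 3 with sex as a replicate block (TTR, COL25A1 and KCNQ5). It ranged from 0 to 46 with each fetus left out, 46 without the control female. The sex block gave 0.052 for the share, and the labels do not number the fetuses. The count for the difference between members and other lists was 0, became 4 with no filter (NRP1, FLI1, DAB2 and KCNMA1), and ranged from 0 to 523 with each fetus left out, with 523 without the LPS female and 54 without the LPS male. Fits that leave out a fetus take the spread from the other group alone, so their counts are not read as findings. Apart from these fits, 119 values of single named genes in members kept their side of the threshold. For the difference between members and other lists 71 values did. In each test 1 value moved past it, and 0 changed direction. Of the values of leading and lowest genes 113 moved by less than the spread between fetuses and 7 by more. Leaving out nuclei with 2 or more oligodendrocyte markers, and shares of the nuclei left by the excluding genes, were chosen after seeing the data. Members of the male libraries had fewer UMIs, so genes of low level rest on fewer counts there.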
